A study of Mus musculus with 34 samples.

Results

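The 10 genes described here are Psca, Cd200r3, Vnn1, Nts, Pappa, Spon2, Slc24a3, Fer1l4, Tle2 and Prr9, out of 14107 genes in the count table. They were picked because their RNA was far higher under the BRAF inhibitor encorafenib than under the solvent DMSO in at least 1 cell line and day. The rise a gene was picked from and its largest rise are given as descriptions and were not tested. The choice had no set threshold, and between 1 and 18 genes of the table had a larger log2 fold change than the gene in the comparison it was picked from. RNA-sequencing counts were measured in 3 lines of mouse colorectal cancer cells, called NaJa-G, NaJa-F and NaJa-D, each treated for 1 or 5 days. All lines and both arms carried the genotype VillinCreERT2::BrafV600E/+::Trp53R172H::APCdel on the C57BL/6N strain. The Villin promoter drives expression in the intestinal epithelium, and the tamoxifen-activated Cre was switched on in cultured colon organoids before these were put into the colon of host mice. Each line grew out of the peritoneal lavage of 1 recipient, so a line stands for 1 animal and differences between lines cannot be told apart from differences between recipients. The treated groups received 0.5 µM encorafenib and the controls the same volume of DMSO, with fresh medium at the start and, in the groups of 5 days, on day 2 and day 4. The 34 libraries formed 12 groups of line, treatment and day, 10 with 3 libraries and 2 (NaJa-G in DMSO and NaJa-F in encorafenib, both at day 5) with 2. The labels do not say whether replicates came from separate cultures, so p-values measure the spread between these libraries only.

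The BRAF V600E kinase signals through MEK to ERK without an upstream signal, and ERK in turn drives a set of feedback and growth genes. Encorafenib occupies the mutant kinase and lowers that output, which makes the fall of ERK feedback genes a common check that the drug acted. The 10 genes fall into different trades. Psca, Cd200r3 and Vnn1 encode proteins of the cell surface, Nts, Pappa and Spon2 encode secreted proteins, Slc24a3 encodes an ion exchanger, Fer1l4 a ferlin, Tle2 a transcriptional corepressor and Prr9 a protein of the cornified layer of skin.

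A library held 46007050 to 80121299 counts in all, and levels are given as CPM, counts relative to the library total with TMM scaling, which are not corrected for gene length and so are compared within a gene only. Of the ERK feedback genes, Spry4 fell in all 6 comparisons of encorafenib with DMSO, with log2 fold changes of -1.68, -1.26, -1.64, -0.91, -3.64 and -2.93 for NaJa-D day 1 and day 5, NaJa-F day 1 and day 5, and NaJa-G day 1 and day 5, the order used for all series of 6 values here. Etv4, an ETS factor induced by ERK, gave -1.20, -1.20, -1.004, -0.66, -3.64 and -1.93, and Dusp6, an ERK phosphatase, -0.55, 0.03, -0.90, -0.24, -1.90 and -1.68. All of these passed the test except Dusp6 at day 5 in NaJa-D and NaJa-F. Of 10 ERK output genes listed, 9, 5, 7, 5, 8 and 9 were called lower and 1, 0, 0, 1, 0 and 0 higher. All 7 colon epithelium markers were in the table, with a summed level of 2570 to 9078 CPM, while none of 6 lymphocyte markers was. The epithelial sum was nearly all Krt8, Krt18, Krt19, Cdh1 and Epcam, since Vil1 and Cdx2 had group means of at most 13.5 and 56.5 CPM. The Cdx2 mean was lower in encorafenib than in DMSO except in NaJa-F at day 5. The 3 of 6 macrophage markers present (Ptprc, Adgre1 and Lyz2 were not) summed to 23.0 to 47.6 CPM, mostly Cd14. In encorafenib the mean of Cd14 was lower and the means of Csf1r and Cd68 were higher in all 6 comparisons, with Csf1r at most 4.11 CPM. Of 7 fibroblast markers 4 were present (Dpt, Lum and Thy1 were not), and in NaJa-G their sum was 51.2 to 70.5 CPM in DMSO and 85.1 to 99.7 CPM in encorafenib at day 1, and 13.9 to 16.6 CPM and 105 to 119 CPM at day 5, against at most 7.54 CPM in any NaJa-D or NaJa-F library. Of 5 mesothelial markers 3 were present (Wt1 and Upk1b were not), and their sum was nearly all Msln, since Upk3b and Lrrn4 had group means of at most 6.18 and 3.51 CPM. At day 1 the sum was 1236 to 1514 CPM in DMSO and 2604 to 3521 CPM in encorafenib in NaJa-D, 743 to 985 and 1104 to 1176 CPM in NaJa-F, and 558 to 724 and 1328 to 1523 CPM in NaJa-G. At day 5 it was 1225 to 1454 and 2215 to 2859 CPM in NaJa-D, 660.1 to 712 and 1002 to 1031 CPM in NaJa-F, and 497 to 565 and 1535 to 1744 CPM in NaJa-G. Their part in the results was not tested. In bulk RNA, more cells that express a gene and more RNA per cell cannot be told apart. The library NaJa-D encorafenib day 1 replicate 3 stood apart from its group, with a median absolute log2 deviation of 0.221 against at most 0.186 elsewhere, and results that rest on it are given with and without it. By its title another library is NaJa-D DMSO day 1 replicate 3, yet its cell line field names NaJa-G. Its log2 CPM correlated at 0.995 with the group of its title and at no more than 0.920 with NaJa-G in DMSO at day 1, and it was kept under its title.

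RefSeq promoter sequences (GRCm38.p6, 250 bases before to 50 after the start site) matched 6 of the 10 genes: Slc24a3, Fer1l4, Prr9, Tle2, Nts and Cd200r3. AP-1, the dimer of FOS and JUN proteins, is a classic endpoint of ERK signalling. Its motif TGANTCA was found in 3 of the 7 start sites of these 6 genes, each of a different gene. Of all 32851 promoters searched on both strands, 7.81% held the motif. The 3 upstream stretches that hold it are shown, 5′ to 3′ on the minus strand on which these genes lie, with the AP-1 match in capitals and, in Prr9, also the TATA box TATAAA. Positions count back from the RefSeq start site.
Fer1l4, chr2:156052994-156053143, bases -150 to -1: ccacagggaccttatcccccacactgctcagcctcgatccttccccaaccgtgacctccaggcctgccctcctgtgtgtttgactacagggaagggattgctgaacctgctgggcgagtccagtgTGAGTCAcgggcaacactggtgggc
Nts, chr10:102490519-102490668, bases -250 to -101: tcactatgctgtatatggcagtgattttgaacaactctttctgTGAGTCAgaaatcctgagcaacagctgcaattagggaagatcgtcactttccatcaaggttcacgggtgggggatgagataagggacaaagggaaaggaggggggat
Prr9, chr3:92123948-92124097, bases -150 to -1: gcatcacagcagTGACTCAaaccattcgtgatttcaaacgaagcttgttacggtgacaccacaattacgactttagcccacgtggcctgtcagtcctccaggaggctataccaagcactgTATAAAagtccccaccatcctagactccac
The AP-1 match began at base -25 in Fer1l4, -207 in Nts and -138 in Prr9, and the TATA box of Prr9 at -30 (13.6% of all promoters hold TATAAA on either strand). The TEAD motif GGAATG, present in 14.7% of promoters, was found in Cd200r3 alone, at -26. The motifs of CRE (TGACGTCA, 1.79% of promoters), FOXO (GTAAACA, 3.65%), ETS (CCGGAAGT, 3.89%) and TCF (CTTTGAT, 3.73%) were in none of the 7 matched start sites. These are matches of letters in a window and were not tested for binding.

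All 60 log2 fold changes, 10 genes in 6 comparisons, were above 0. A gene was not tested where libraries of its choosing comparisons entered. These were taken as the comparison it was picked from and the one with its largest rise. Other large rises may have had a part in the choice yet were tested, so the calls are not fully free of it. For example, 3 genes of the table rose more than Pappa in NaJa-F day 5, and 3 more than Cd200r3 in NaJa-D day 5. Of the 60 values 46 were tested by limma-voom (called at p below 0.01 after Benjamini-Hochberg adjustment across the table). Of these, 38 were called higher under encorafenib, 0 lower and 8 not called. By comparison, 5 of 6 genes tested were called in NaJa-D at day 1, where 23.7% of all genes were called higher, and 6 of 7 at day 5 (18.3% of all genes). In NaJa-F, 8 of 9 were called at day 1 (17.5% of all genes) and 7 of 10 at day 5 (9.7%). In NaJa-G, 6 of 6 were called at day 1 (35.3%) and 6 of 8 at day 5 (28.5%). The shares of all genes called lower were 21.2%, 14.7%, 12%, 8.5%, 28.7% and 24.7%. The median log2 fold change of the genes tested was 2.42, 1.93, 1.97, 1.11, 2.96 and 2.56 in the 6 comparisons, beside medians over all genes of 0.04, 0.01, -0.02, 0.003, 0.04 and 0.01.

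Most of the genes rose in all 3 lines. Psca, Cd200r3, Vnn1, Nts, Pappa, Slc24a3 and Prr9 were called higher in every comparison in which they were tested, Fer1l4 in 3 of 5, Tle2 in 2 of 5 and Spon2 in 1 of 4. Encorafenib and DMSO libraries did not overlap in any of the 6 comparisons for 8 of the genes, and overlapped in 1 comparison each for Tle2 (NaJa-F day 1) and Spon2 (NaJa-D day 1). Over all genes, 28.8%, 29.8%, 30%, 28%, 40% and 37.7% were higher in encorafenib without overlap. Each gene exceeded 1 CPM in at least 3 of the 17 DMSO libraries, so each would have passed the low-count limit of the table, more than 1 CPM in at least 2 libraries, in DMSO alone.

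**Figure D1:**
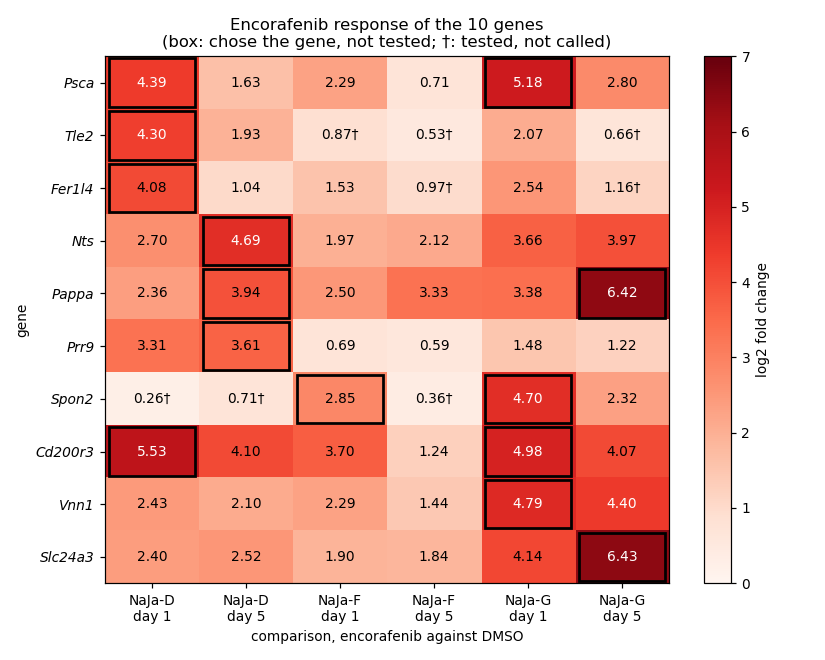
Log2 fold change of encorafenib against DMSO (colour and printed value) for the 10 genes (vertical) in the 6 comparisons of line and day (horizontal). Boxed values chose the gene and were not tested, a dagger marks the 8 tested values that were not called, and all 60 values lie above 0, from 0.26 (Spon2, NaJa-D day 1) to 6.43 (Slc24a3, NaJa-G day 5).

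Psca (ENSMUSG00000022598, chromosome 15, 74714839 to 74717069, plus strand) encodes prostate stem cell antigen, a small lipid-anchored protein of the Ly6 family. In NaJa-D, Psca had 3.75, 4.29 and 3.44 CPM in the DMSO libraries and 76.1, 80.2 and 84.9 CPM in the encorafenib libraries of day 1, and 7.46, 8.38 and 7.63 CPM against 23.1, 22.8 and 26.9 CPM at day 5. NaJa-F had 3.57, 3.78 and 3.61 CPM of Psca in DMSO against 18.4, 19.5 and 16.2 CPM in encorafenib at day 1, and 4.03, 4.18 and 3.93 CPM against 6.01 and 7.22 CPM at day 5. The Psca libraries of NaJa-G read 0.484, 0.522 and 0.566 CPM in DMSO and 19.4, 19.4 and 18.5 CPM in encorafenib at day 1, and 0.903 and 0.679 CPM and 5.05, 6.02 and 5.33 CPM at day 5. Every encorafenib group lay above its DMSO group without overlap, and the gap was wider at day 1 than at day 5 in each line. The comparisons that chose the gene were NaJa-D day 1, with a log2 fold change of 4.39 (SE 0.11), and NaJa-G day 1, with 5.18 (SE 0.19). Among those tested, limma-voom gave 2.29 (SE 0.10, adjusted p = 2.32e-16) in NaJa-F day 1, 0.71 (SE 0.12, adjusted p = 6.77e-05) in NaJa-F day 5, 1.63 (SE 0.09, adjusted p = 4.73e-15) in NaJa-D day 5 and 2.80 (SE 0.22, adjusted p = 5.57e-12) in NaJa-G day 5. The smallest of these, NaJa-F day 5, was no longer called without NaJa-F encorafenib day 5 replicate 2 (0.55, limma-voom adjusted p = 0.0108). In the order of the 12 group means NaJa-D encorafenib was highest at day 1 and then at day 5, followed by the NaJa-G and NaJa-F encorafenib groups of day 1, which overlapped, and both NaJa-G DMSO groups were lowest. The other neighbours that overlapped were NaJa-F and NaJa-G encorafenib day 5, and the 3 DMSO groups NaJa-F day 5, NaJa-D day 1 and NaJa-F day 1.

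The Psca relatives Slurp1 and Lypd2 rose at day 1 but not at day 5. Of 17 genes listed as Ly6 and uPAR domain proteins 10 were in the table, and 5, 2, 4, 2, 6 and 4 were called higher and 2, 2, 0, 1, 1 and 2 lower in the 6 comparisons. Slurp1, which encodes a secreted Ly6 protein, had log2 fold changes of 2.94, -0.42, 3.16, -0.88, 3.54 and -1.57, and all but the value of NaJa-F day 5 were called. Lypd2, another Ly6 family gene, had log2 fold changes of 1.86, -1.36, 2.74, -0.93, 3.67 and -1.80, again with NaJa-F day 5 not called. Both were thus higher than DMSO at day 1 in the 3 lines and lower at day 5 in NaJa-D and NaJa-G, whereas Psca stayed above DMSO. Psca was not alone in this, since Lynx1 of the list was also called higher at day 5 in NaJa-D (0.71) and NaJa-G (1.17). Ly6d was called higher at day 5 in NaJa-D (1.62). Lypd6b, named for the same family, reached 3.30 (SE 0.43) in NaJa-G at day 5. The list had medians of 0.33, 0.12, 0.35, 0.07, 1.00 and 0.38.

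Cd200r3 (ENSMUSG00000036172, chromosome 16, 44943678 to 44981380, plus strand) encodes a receptor of the CD200R family, known from mast cells and basophils. In NaJa-D, Cd200r3 had 0.0628, 0.0235 and 0.0970 CPM in the DMSO libraries and 3.76, 3.65 and 1.88 CPM in the encorafenib libraries of day 1, and 0.278, 0.411 and 0.374 CPM against 6.77, 5.68 and 5.92 CPM at day 5. NaJa-F had 0.549, 0.490 and 0.546 CPM of Cd200r3 in DMSO against 7.32, 7.09 and 6.50 CPM in encorafenib at day 1, and 1.24, 1.02 and 1.44 CPM against 3.16 and 2.68 CPM at day 5. The Cd200r3 libraries of NaJa-G read 0.798, 0.536 and 0.832 CPM in DMSO and 22.3, 21.5 and 23.6 CPM in encorafenib at day 1, and 0.686 and 0.970 CPM and 13.4, 14.03 and 14.7 CPM at day 5. The gene was scarce in NaJa-D without drug, with 1 to 4 reads per DMSO library at day 1, and none of the DMSO and encorafenib groups overlapped. Summed over libraries, 8 reads in DMSO stood against 563 in encorafenib in NaJa-D at day 1. Relative to the library totals with TMM scaling this was a ratio of 52.0 (95% exact interval 26.2 to 121, counting error only). The fitted log2 fold change there, 5.53 (SE 0.54), was the largest of all genes in that comparison and chose the gene together with NaJa-G day 1, 4.98 (SE 0.22). Replicate 3 of NaJa-D encorafenib day 1 had 1.88 CPM against 3.76 and 3.65 CPM, and without it the value was 5.79. The tested values were 4.10 (SE 0.31, adjusted p = 1.01e-11) in NaJa-D day 5, 3.70 (SE 0.25, adjusted p = 2.21e-12) in NaJa-F day 1, 1.24 (SE 0.24, adjusted p = 1.69e-04) in NaJa-F day 5 and 4.07 (SE 0.26, adjusted p = 7.50e-14) in NaJa-G day 5 by limma-voom. Both NaJa-G encorafenib groups were highest, and NaJa-D was lowest in DMSO. Overlapping neighbours were NaJa-F encorafenib day 1 with NaJa-D encorafenib day 5, NaJa-D encorafenib day 1 with NaJa-F encorafenib day 5, and the DMSO groups of NaJa-G day 5, NaJa-G day 1 and NaJa-F day 1.

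Of 8 genes listed as CD200 receptors, the ligand and adaptors, 3 were in the table, and neither the ligand Cd200 nor Tyrobp, the adaptor of activating receptors, was among them. Cd200r4, a paralog in the same family, had log2 fold changes of 4.09, 3.88, 3.23, -1.36, 3.55 and -0.28, all called except NaJa-G day 5. It rose with Cd200r3 at day 1 in each line and at day 5 in NaJa-D, and fell at day 5 in NaJa-F. The 2 genes are close in sequence and the treatment of reads that match both is not given in the sources used here, so the split of reads between them is uncertain. The adaptor genes Dok1 and Dok2 were called lower in 3 and higher in 2 comparisons, respectively. Over the 3 genes, 2, 2, 1, 0, 1 and 0 were called higher and 0, 0, 1, 2, 1 and 0 lower, with medians of 0.91, 0.49, 0.14, -0.39, -0.07 and 0.20. Of 10 mast cell and basophil markers 2, Mcpt8 and Gata2, were in the table. Their sum was lower in encorafenib than in DMSO in each line and day, for example 25.4 to 30.3 CPM in DMSO and 20.7 to 23.0 CPM in encorafenib in NaJa-G at day 1, and Ms4a2, Fcer1a, Cpa3, Mcpt4, Tpsab1, Cma1, Prss34 and Kit were not in the table.

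Vnn1 (ENSMUSG00000037440, chromosome 10, 23894688 to 23905343, plus strand) encodes vanin-1, a membrane-anchored pantetheinase that releases pantothenic acid, the vitamin from which coenzyme A is built, and cysteamine. In NaJa-D, Vnn1 had 14.8, 18.4 and 20.4 CPM in the DMSO libraries and 85.1, 90.4 and 112 CPM in the encorafenib libraries of day 1, and 15.7, 19.1 and 16.8 CPM against 73.1, 72.2 and 73.9 CPM at day 5. NaJa-F had 8.66, 8.88 and 7.53 CPM of Vnn1 in DMSO against 41.4, 41.3 and 39.4 CPM in encorafenib at day 1, and 10.9, 10.5 and 11.4 CPM against 31.7 and 27.9 CPM at day 5. The Vnn1 libraries of NaJa-G read 1.47, 1.85 and 1.56 CPM in DMSO and 44.6, 42.2 and 49.2 CPM in encorafenib at day 1, and 2.19 and 2.18 CPM and 47.4, 47.1 and 44.7 CPM at day 5. All encorafenib libraries lay above all DMSO libraries of the same line, and even the lowest encorafenib library of NaJa-F exceeded the highest DMSO library of any line. The day and line that chose the gene, NaJa-G day 1, had a log2 fold change of 4.79 (SE 0.18). The tested values were 4.40 (SE 0.20, adjusted p = 3.56e-17) in NaJa-G day 5, 2.43 (SE 0.10, adjusted p = 1.51e-17) in NaJa-D day 1, 2.10 (SE 0.09, adjusted p = 2.21e-16) in NaJa-D day 5, 2.29 (SE 0.11, adjusted p = 6.88e-16) in NaJa-F day 1 and 1.44 (SE 0.11, adjusted p = 7.38e-11) in NaJa-F day 5, each by limma-voom. NaJa-D day 1 gave 2.29 without replicate 3 of the encorafenib group. Encorafenib groups took the first 6 places in the order of levels, and in DMSO the order was NaJa-D, NaJa-F and NaJa-G, with overlap between the 2 DMSO groups of NaJa-D and between the 2 encorafenib groups of NaJa-G.

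Few genes around Vnn1 in its pathway were called higher. Of 11 genes listed as vanins and coenzyme A synthesis 10 were in the table, with 1, 0, 1, 0, 1 and 0 called higher, 1, 0, 1, 0, 4 and 3 called lower and medians of 0.05, -0.06, -0.07, 0.01, -0.24 and -0.21. None reached a log2 fold change of 1 in a comparison in which it was called.

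Nts (ENSMUSG00000019890, chromosome 10, 102481756 to 102490486, minus strand) encodes the precursor of neurotensin, a peptide that enteroendocrine cells of the gut and neurons release. In NaJa-D, Nts had 11.3, 16.4 and 15.5 CPM in the DMSO libraries and 81.3, 93.8 and 103 CPM in the encorafenib libraries of day 1, and 8.94, 12.8 and 9.88 CPM against 263, 271 and 262 CPM at day 5. NaJa-F had 44.4, 42.2 and 40.6 CPM of Nts in DMSO against 173, 176 and 151 CPM in encorafenib at day 1, and 41.8, 48.1 and 41.7 CPM against 189 and 192 CPM at day 5. The Nts libraries of NaJa-G read 1.47, 1.98 and 1.88 CPM in DMSO and 21.0, 20.6 and 25.9 CPM in encorafenib at day 1, and 4.95 and 5.03 CPM and 71.4, 83.0 and 80.8 CPM at day 5. Encorafenib libraries exceeded DMSO libraries without overlap throughout, and the drug level rose from day 1 to day 5 in NaJa-D and NaJa-G and by less in NaJa-F. NaJa-D day 5, which chose the gene, had a log2 fold change of 4.69 (SE 0.13), with 1 gene of the table above it. Tested by limma-voom, the values were 2.70 (SE 0.12, adjusted p = 1.50e-16) in NaJa-D day 1, 1.97 (SE 0.10, adjusted p = 1.89e-15) in NaJa-F day 1, 2.12 (SE 0.11, adjusted p = 1.01e-14) in NaJa-F day 5, 3.66 (SE 0.21, adjusted p = 3.18e-15) in NaJa-G day 1 and 3.97 (SE 0.17, adjusted p = 1.64e-17) in NaJa-G day 5. Without the library that stood apart NaJa-D day 1 gave 2.59. NaJa-F had the highest DMSO level and NaJa-G the lowest, so that NaJa-G in encorafenib at day 1 lay below NaJa-F in DMSO. Neighbours that overlapped were NaJa-D encorafenib day 1 with NaJa-G encorafenib day 5, and the 2 DMSO groups within NaJa-F and within NaJa-D.

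Of 13 genes listed as neurotensin receptors and peptide processing 6 were in the table, and the receptors Ntsr1 and Ntsr2 were not. They were called higher in 2, 1, 1, 3, 3 and 3 cases and lower in 3, 2, 1, 2, 2 and 2, with medians of -0.32, -0.15, -0.10, 0.18, 0.08 and 0.29. Sort1, which encodes sortilin, a sorting receptor that binds neurotensin, was called higher in all 6 comparisons, with log2 fold changes of 0.45, 1.03, 0.40, 0.90, 1.48 and 2.84. In NaJa-G at day 5 Sort1 had 2.61 ± 0.57 CPM in DMSO (SD, n = 2) and 18.7 ± 1.00 CPM in encorafenib (SD, n = 3). In each line its fold change was larger at day 5 than at day 1, a difference that was not tested. The proprotein convertase genes Pcsk6 and Furin were called lower in 4 and 5 comparisons and higher in none. None of 8 enteroendocrine markers (Chga, Chgb, Neurod1, Syp, Scg3, Pyy, Gcg and Sct) was in the table.

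Pappa (ENSMUSG00000028370, chromosome 4, 65124174 to 65357509, plus strand) encodes PAPP-A, a secreted metalloproteinase that cleaves insulin-like growth factor (IGF) binding proteins and so frees IGF. In NaJa-D, Pappa had 1.63, 1.71 and 1.70 CPM in the DMSO libraries and 8.46, 8.03 and 9.66 CPM in the encorafenib libraries of day 1, and 2.18, 1.92 and 1.35 CPM against 30.4, 28.3 and 24.2 CPM at day 5. NaJa-F had 1.17, 1.02 and 0.924 CPM of Pappa in DMSO against 5.29, 5.77 and 6.46 CPM in encorafenib at day 1, and 1.53, 1.62 and 1.28 CPM against 15.2 and 14.4 CPM at day 5. The Pappa libraries of NaJa-G read 0.275, 0.348 and 0.200 CPM in DMSO and 2.93, 2.79 and 2.99 CPM in encorafenib at day 1, and 0.151 and 0.194 CPM and 15.05, 15.9 and 15.4 CPM at day 5. The groups did not overlap in any comparison, and each line reached a higher level in encorafenib at day 5 than at day 1 while its DMSO level stayed at or below 2.18 CPM. NaJa-D day 5 with 3.94 (SE 0.14) and NaJa-G day 5 with 6.42 (SE 0.36) chose the gene. In the second of these 23 reads in DMSO stood against 3152 in encorafenib, a ratio of 88.6 (95% exact interval 58.9 to 140, counting error only). The tested values were 2.36 (SE 0.17, adjusted p = 1.99e-12) in NaJa-D day 1, 2.497 (SE 0.17, adjusted p = 2.73e-12) in NaJa-F day 1, 3.33 (SE 0.16, adjusted p = 1.38e-15) in NaJa-F day 5 and 3.38 (SE 0.27, adjusted p = 4.73e-12) in NaJa-G day 1 (limma-voom). Leaving out the library that stood apart gave 2.26 in NaJa-D day 1. Of its 12 levels only the encorafenib groups of NaJa-G and NaJa-F at day 5 and the 2 DMSO groups of NaJa-D overlapped with a neighbour.

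The genes for inhibitors of PAPP-A fell. Stc1, which encodes stanniocalcin-1, an inhibitor of PAPP-A, was called lower in all 6 comparisons with log2 fold changes of -4.94, -4.89, -3.70, -4.63, -4.29 and -4.00, and in NaJa-G at day 1 it had 216 ± 6.10 CPM in DMSO and 11.1 ± 0.38 CPM in encorafenib (SD, n = 3). Stc2, which encodes the second stanniocalcin, was also called lower in all 6, with -0.87, -1.77, -0.68, -0.50, -1.77 and -1.38. Of the 12 genes listed for PAPP-A, stanniocalcins and the IGF axis, all in the table, 1, 2, 3, 3, 4 and 6 were called higher and 3, 4, 4, 2, 3 and 3 lower, with medians of -0.34, -0.09, 0.05, -0.09, 0.04 and 1.32. Igfbp2, an IGF binding protein gene, had log2 fold changes of -1.72, 1.14, 0.76, 2.75, 2.11 and 5.15 and was called in NaJa-F day 5 and both days of NaJa-G. Igf2, the growth factor gene, had log2 fold changes of -0.37, 0.74, 1.41, 0.33, 1.58 and 3.70 and was called in NaJa-F day 1 and both days of NaJa-G. Igfbp4, which encodes a main substrate of PAPP-A, was called in none.

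**Figure D2:**
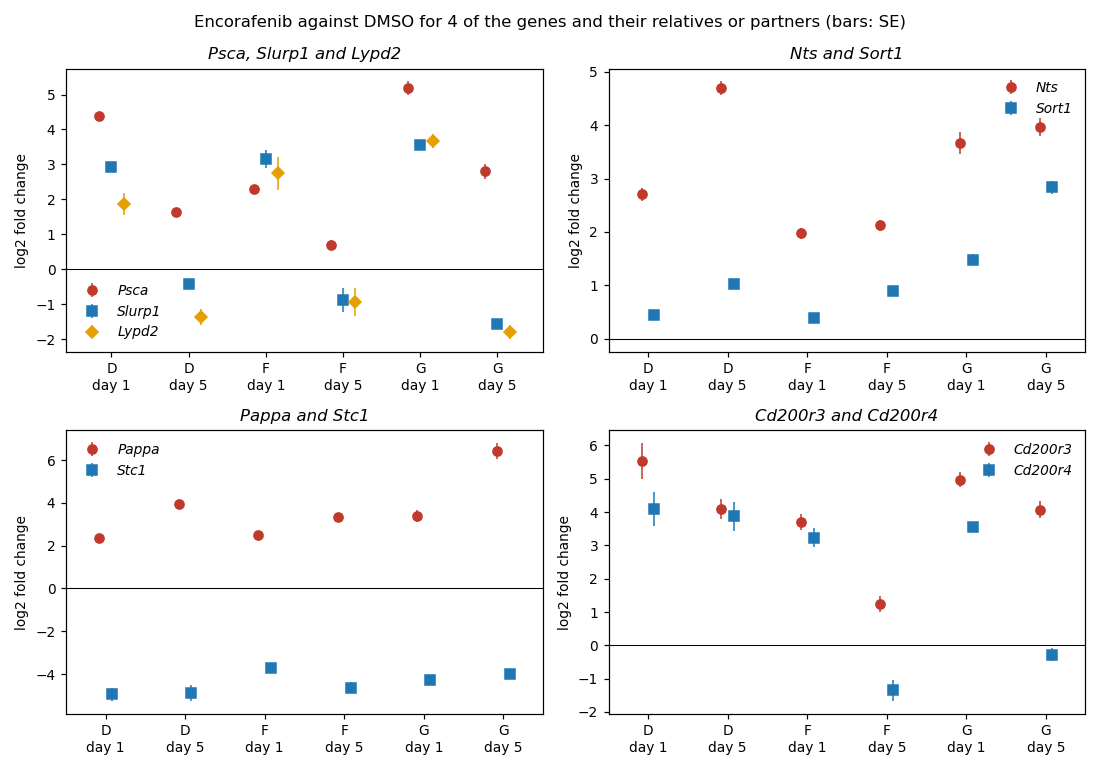
Log2 fold change of encorafenib against DMSO with its SE (vertical) in the 6 comparisons of line and day (horizontal) for Psca, Nts, Pappa and Cd200r3 (circles) and for relatives or partners of each (squares and diamonds). Slurp1 and Lypd2 lie above 0 at day 1 and below 0 at day 5, Sort1 lies above 0 in all 6 comparisons, Stc1 lies below 0 in all 6, between -3.70 and -4.94, and Cd200r4 lies below 0 at day 5 in NaJa-F and NaJa-G.

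Spon2 (ENSMUSG00000037379, chromosome 5, 33198184 to 33218455, minus strand) encodes spondin-2, also called mindin, a secreted protein of the extracellular matrix. In NaJa-D, Spon2 had 0.796, 0.751 and 0.606 CPM in the DMSO libraries and 0.948, 0.993 and 0.658 CPM in the encorafenib libraries of day 1, and 0.638, 0.735 and 0.909 CPM against 1.05, 1.11 and 1.68 CPM at day 5. NaJa-F had 2.61, 2.15 and 1.97 CPM of Spon2 in DMSO against 16.5, 16.3 and 15.1 CPM in encorafenib at day 1, and 4.93, 5.03 and 5.15 CPM against 6.29 and 6.62 CPM at day 5. The Spon2 libraries of NaJa-G read 5.05, 4.41 and 4.22 CPM in DMSO and 116, 117 and 122 CPM in encorafenib at day 1, and 12.4 and 15.3 CPM and 67.6, 71.6 and 69.2 CPM at day 5. In NaJa-D the gene stayed at or below 1.68 CPM in all libraries and the groups of day 1 overlapped, whereas NaJa-G rose from 4.22 to 5.05 CPM in DMSO to 116 to 122 CPM in encorafenib at day 1. The choosing comparisons were NaJa-F day 1, 2.85 (SE 0.12), and NaJa-G day 1, 4.70 (SE 0.09). Of those tested, NaJa-G day 5 was called with 2.32 (SE 0.08, adjusted p = 5.19e-20), and the rest were not, with 0.26 (SE 0.26, adjusted p = 0.403) in NaJa-D day 1, 0.71 (SE 0.23, adjusted p = 0.0120) in NaJa-D day 5 and 0.36 (SE 0.12, adjusted p = 0.0249) in NaJa-F day 5 (limma-voom). NaJa-D day 5 passed with edgeR (adjusted p = 0.00107), DESeq2 (adjusted p = 0.000208) and limma-trend (adjusted p = 0.000381), and NaJa-F day 5 passed with DESeq2 (adjusted p = 0.00962). The level in DMSO was also higher at day 5 than at day 1 in NaJa-F and NaJa-G. NaJa-G held the first 2 places in the order of levels and NaJa-D the last 4. Overlapping neighbours were NaJa-F encorafenib day 1 with NaJa-G DMSO day 5, NaJa-F DMSO day 5 with NaJa-G DMSO day 1, and the last 3 groups, all of NaJa-D.

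Of 14 genes listed as spondins and thrombospondin repeat proteins 6 were in the table, with 3, 3, 3, 3, 4 and 5 called higher and 0, 1, 0, 1, 0 and 0 lower. Thbs1, which encodes thrombospondin-1, and Ccn2, a matricellular gene, were called higher in all 6, Thbs1 with 0.87, 0.61, 0.82, 1.01, 2.66 and 2.68 and Ccn2 with 1.17, 1.35, 0.85, 1.22, 1.16 and 2.61. Thbs2, which encodes a second thrombospondin, was called lower in NaJa-D day 5 (-1.07) and NaJa-F day 5 (-2.56) and higher in NaJa-G day 1 (0.40). The list medians were 0.45, 0.49, 0.03, 0.26, 0.59 and 1.04.

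Slc24a3 (ENSMUSG00000063873, chromosome 2, 145167754 to 145642166, plus strand) encodes NCKX3, an exchanger that moves calcium out of the cell against sodium together with potassium. In NaJa-D, Slc24a3 had 0.356, 0.727 and 0.825 CPM in the DMSO libraries and 2.84, 3.00 and 3.80 CPM in the encorafenib libraries of day 1, and 0.671, 0.605 and 0.588 CPM against 3.98, 3.48 and 3.48 CPM at day 5. NaJa-F had 3.70, 3.55 and 3.34 CPM of Slc24a3 in DMSO against 12.7, 14.04 and 12.7 CPM in encorafenib at day 1, and 2.96, 3.90 and 3.71 CPM against 12.5 and 12.6 CPM at day 5. The Slc24a3 libraries of NaJa-G read 0.916, 0.536 and 0.532 CPM in DMSO and 12.1, 11.3 and 11.1 CPM in encorafenib at day 1, and 0.385 and 0.554 CPM and 38.7, 44.6 and 39.9 CPM at day 5. The libraries did not overlap in any comparison, and NaJa-G at day 5 stood far above the other groups. That comparison, 6.43 (SE 0.27), chose the gene. The tested values were 2.40 (SE 0.26, adjusted p = 7.22e-09) in NaJa-D day 1, 2.52 (SE 0.23, adjusted p = 6.88e-10) in NaJa-D day 5, 1.90 (SE 0.12, adjusted p = 1.73e-13) in NaJa-F day 1, 1.84 (SE 0.13, adjusted p = 4.21e-12) in NaJa-F day 5 and 4.14 (SE 0.20, adjusted p = 8.96e-17) in NaJa-G day 1 (limma-voom). NaJa-D day 1 gave 2.25 without the library that stood apart. NaJa-D in encorafenib reached only the level of NaJa-F in DMSO, and these 4 groups overlapped as neighbours, as did NaJa-G DMSO day 1 with both DMSO groups of NaJa-D. The gene model spans 474 kb and overlaps Gm14093 and Gm22731 on its strand and Gm22390, Gm11759 and Gm14092 on the other. Reads of the opposite strand cannot be told apart from it, since the use of strand in counting is not given in the sources used here.

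Among 15 sodium calcium exchangers and calcium pumps 9 were in the table, and more were called lower (4, 4, 2, 2, 5 and 4) than higher (1, 1, 1, 1, 2 and 1), with medians of -0.18, -0.38, -0.21, -0.10, -0.30 and -0.24. Atp2b4, a calcium pump gene of the plasma membrane, was called higher in all 6 with 1.08, 1.32, 2.17, 2.12, 4.36 and 3.82. Atp2a3, a pump gene of the endoplasmic reticulum, was called lower in NaJa-D on both days and in NaJa-G on both days, with -2.88 in NaJa-D day 5. Slc24a2, another exchanger of the family, was called higher in NaJa-G day 1 (1.72) and lower in NaJa-F day 5 (-1.53) and NaJa-G day 5 (-0.999).

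Fer1l4 (ENSMUSG00000013338, chromosome 2, 156019139 to 156052947, minus strand) belongs to the ferlins, a family of membrane proteins with roles in vesicle fusion and membrane repair. In NaJa-D, Fer1l4 had 1.15, 1.27 and 1.41 CPM in the DMSO libraries and 26.5, 24.4 and 14.9 CPM in the encorafenib libraries of day 1, and 4.96, 5.16 and 5.24 CPM against 12.02, 9.28 and 10.7 CPM at day 5. NaJa-F had 0.515, 0.579 and 0.840 CPM of Fer1l4 in DMSO against 2.03, 1.93 and 1.66 CPM in encorafenib at day 1, and 1.67, 0.987 and 1.36 CPM against 2.97 and 2.24 CPM at day 5. The Fer1l4 libraries of NaJa-G read 0.419, 0.429 and 0.299 CPM in DMSO and 2.12, 2.52 and 2.06 CPM in encorafenib at day 1, and 0.452 and 0.277 CPM and 0.784, 0.780 and 0.800 CPM at day 5. NaJa-D had the highest level in each treatment and day, and its DMSO libraries of day 5 already lay above every NaJa-F and NaJa-G library. In NaJa-D day 1, which chose the gene, the log2 fold change was 4.08 (SE 0.29), with replicate 3 of the encorafenib group the lowest of its group, and without it the value was 4.29. The tested values were 1.04 (SE 0.18, adjusted p = 2.51e-05) in NaJa-D day 5, 1.53 (SE 0.37, adjusted p = 0.00152) in NaJa-F day 1 and 2.54 (SE 0.42, adjusted p = 3.83e-06) in NaJa-G day 1, all called by limma-voom. At day 5 NaJa-F, 0.97 (SE 0.33, adjusted p = 0.0291), and NaJa-G, 1.16 (SE 0.55, adjusted p = 0.0668), were not called by limma-voom, although their libraries did not overlap. Both passed with edgeR (adjusted p = 0.00149 and 0.00183), DESeq2 (adjusted p = 0.000203 and 0.000447) and limma-trend (adjusted p = 0.00237 and 0.000268). Overlapping neighbours among the 12 levels were NaJa-F encorafenib day 5 with NaJa-G encorafenib day 1, the run of NaJa-F encorafenib day 1, NaJa-F DMSO day 5 and NaJa-D DMSO day 1, NaJa-G encorafenib day 5 with NaJa-F DMSO day 1, and the 2 DMSO groups of NaJa-G.

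Of the 5 other ferlin genes 4 were in the table. Fer1l6 was called lower in all 6 comparisons, with -0.37, -1.36, -0.99, -0.99, -0.79 and -1.51, and Dysf, which encodes dysferlin, was called higher in NaJa-G on both days (1.34 and 1.24) and in no other comparison. In all, 1, 0, 0, 1, 2 and 3 were called higher and 1, 2, 1, 1, 1 and 1 lower, with medians of 0.23, 0.05, 0.12, -0.27, 0.32 and 0.48.

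Tle2 (ENSMUSG00000034771, chromosome 10, 81574561 to 81590845, plus strand) encodes a Groucho corepressor, which has no DNA binding of its own and is brought to genes by factors such as TCF, HES and RUNX proteins. In NaJa-D, Tle2 had 1.34, 1.52 and 0.897 CPM in the DMSO libraries and 43.0, 39.7 and 7.86 CPM in the encorafenib libraries of day 1, and 9.66, 7.80 and 7.70 CPM against 32.2, 29.7 and 34.8 CPM at day 5. NaJa-F had 1.39, 1.31 and 3.57 CPM of Tle2 in DMSO against 3.99, 3.53 and 3.04 CPM in encorafenib at day 1, and 5.70, 5.76 and 5.91 CPM against 6.93 and 10.0 CPM at day 5. The Tle2 libraries of NaJa-G read 2.29, 4.19 and 5.04 CPM in DMSO and 13.8, 17.99 and 13.0 CPM in encorafenib at day 1, and 7.84 and 9.02 CPM and 11.5, 14.6 and 14.3 CPM at day 5. The 3 libraries of NaJa-D encorafenib day 1 ranged widely, 43.0 against 7.86 CPM at the extremes, and in NaJa-F at day 1 one DMSO library at 3.57 CPM lay among the encorafenib libraries. NaJa-D day 1 chose the gene with 4.30 (SE 0.83), and without the low replicate 3 the value was 5.03. By limma-voom 2 comparisons were called, NaJa-D day 5 with 1.93 (SE 0.40, adjusted p = 2.58e-04) and NaJa-G day 1 with 2.07 (SE 0.50, adjusted p = 5.56e-04). The others were not called, with 0.87 (SE 0.72, adjusted p = 0.348) in NaJa-F day 1, 0.53 (SE 0.54, adjusted p = 0.520) in NaJa-F day 5 and 0.66 (SE 0.46, adjusted p = 0.218) in NaJa-G day 5. The last passed when limma-voom was fitted to only the groups compared (0.65, adjusted p = 0.0039). Most neighbours in the order of its 12 levels overlapped, 8 of 11 pairs. Those without overlap were NaJa-G encorafenib day 5 above NaJa-F encorafenib day 5, NaJa-D DMSO day 5 above NaJa-F DMSO day 5, and the latter above NaJa-G DMSO day 1. The NaJa-D encorafenib day 1 library at 7.86 CPM also lay within the range of NaJa-F encorafenib day 5, 6.93 to 10.0 CPM. The antisense gene Gm15917 overlaps Tle2, and its reads cannot be told apart where strand was not used.

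Of 15 genes listed as TLE corepressors and their partners 14 were in the table, with 5, 3, 2, 0, 6 and 1 called higher and 4, 2, 2, 5, 2 and 8 lower. Lef1 and Tcf7, which encode WNT pathway factors that bind TLE proteins, were called lower in several comparisons. Lef1 was called lower at day 5 in NaJa-F (-2.25) and NaJa-G (-0.81). Tcf7 had log2 fold changes of -0.50, -0.43, -0.20, -0.58, -0.37 and -1.54, all called lower except NaJa-F day 1. Hey1, a repressor gene of the NOTCH pathway, was called lower in NaJa-D day 1 (-1.96) and NaJa-G day 5 (-1.21). In NaJa-D at day 1 the Hey1 mean was only 0.222 CPM in DMSO and 0.0556 CPM in encorafenib. The list medians were -0.01, -0.05, 0.01, -0.20, 0.13 and -0.46.

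Prr9 (ENSMUSG00000056270, chromosome 3, 92122204 to 92123947, minus strand) encodes a proline-rich protein and lies in the epidermal differentiation complex, a cluster of genes for the cornified envelope of skin. In NaJa-D, Prr9 had 1.30, 0.446 and 0.558 CPM in the DMSO libraries and 7.35, 6.47 and 7.39 CPM in the encorafenib libraries of day 1, and 0.982, 1.66 and 1.68 CPM against 19.4, 14.9 and 17.1 CPM at day 5. NaJa-F had 5.68, 4.90 and 4.77 CPM of Prr9 in DMSO against 8.05, 8.27 and 8.30 CPM in encorafenib at day 1, and 5.71, 6.28 and 5.99 CPM against 9.92 and 8.21 CPM at day 5. The Prr9 libraries of NaJa-G read 0.301, 0.442 and 0.416 CPM in DMSO and 0.962, 1.10 and 1.17 CPM in encorafenib at day 1, and 0.702 and 0.263 CPM and 0.965, 0.952 and 1.03 CPM at day 5. The groups did not overlap, yet the gap was wide in NaJa-D and narrow in NaJa-F, where the DMSO level was highest, and NaJa-G stayed at or below 1.17 CPM throughout. NaJa-D day 5, which chose the gene, had 3.61 (SE 0.20). The tested values were 3.31 (SE 0.29, adjusted p = 1.59e-10) in NaJa-D day 1, 0.69 (SE 0.14, adjusted p = 1.49e-04) in NaJa-F day 1, 0.59 (SE 0.15, adjusted p = 0.00289) in NaJa-F day 5, 1.48 (SE 0.35, adjusted p = 4.23e-04) in NaJa-G day 1 and 1.22 (SE 0.40, adjusted p = 0.00878) in NaJa-G day 5 (limma-voom). Without the library that stood apart NaJa-D day 1 gave 3.25. The call in NaJa-G day 5 was lost without any 1 of the 3 encorafenib libraries (limma-voom adjusted p = 0.0142 to 0.0209), and without NaJa-G DMSO day 5 replicate 3 the value fell to 0.48 (limma-voom adjusted p = 0.368). The call in NaJa-F day 5 was lost with edgeR (adjusted p = 0.0417), DESeq2 (adjusted p = 0.0111), limma-trend (adjusted p = 0.152), and without any 1 of 3 of its 5 libraries (limma-voom adjusted p = 0.0117 to 0.0800). That in NaJa-F day 1 was lost with limma-trend (adjusted p = 0.0408). NaJa-F encorafenib day 5 and day 1 overlapped as neighbours, and so did the last 6 levels, from NaJa-D DMSO day 5 down. The sense-overlapping transcript AC138676.1 shares its strand, so reads may be split between them.

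Other genes of the epidermal differentiation complex were also called higher, except that in NaJa-F day 5 more were called lower than higher. Of 25 listed 13 were in the table, with 7, 5, 7, 1, 9 and 6 called higher and 0, 0, 2, 2, 2 and 2 lower, and medians of 1.49, 0.89, 1.48, 0.20, 2.42 and 1.03. Over all genes, 23.7%, 18.3%, 17.5%, 9.7%, 35.3% and 28.5% were called higher and 21.2%, 14.7%, 12%, 8.5%, 28.7% and 24.7% lower. Sprr3 and Sprr2a3, which encode small proline-rich proteins of the envelope, had log2 fold changes of 2.39, 1.51, 4.35, 1.499, 5.88 and 5.18 for Sprr3 and 3.18, 1.21, 2.94, 0.05, 4.51 and 1.26 for Sprr2a3. Sprr3 was called in NaJa-F day 1 and both days of NaJa-G, and Sprr2a3 in all but NaJa-F day 5. The group means of Sprr3 were only 0.0210 to 0.0540 CPM in DMSO and at most 1.16 CPM in encorafenib, so its fold changes are imprecise. Ivl, which encodes involucrin, was called higher in NaJa-D day 1 (0.72) and lower in NaJa-F and NaJa-G on both days, with values of -0.79, -0.97, -4.07, -1.86. The Sprr2a genes are near-identical copies, and how their reads were shared out is uncertain.

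**Figure D3:**
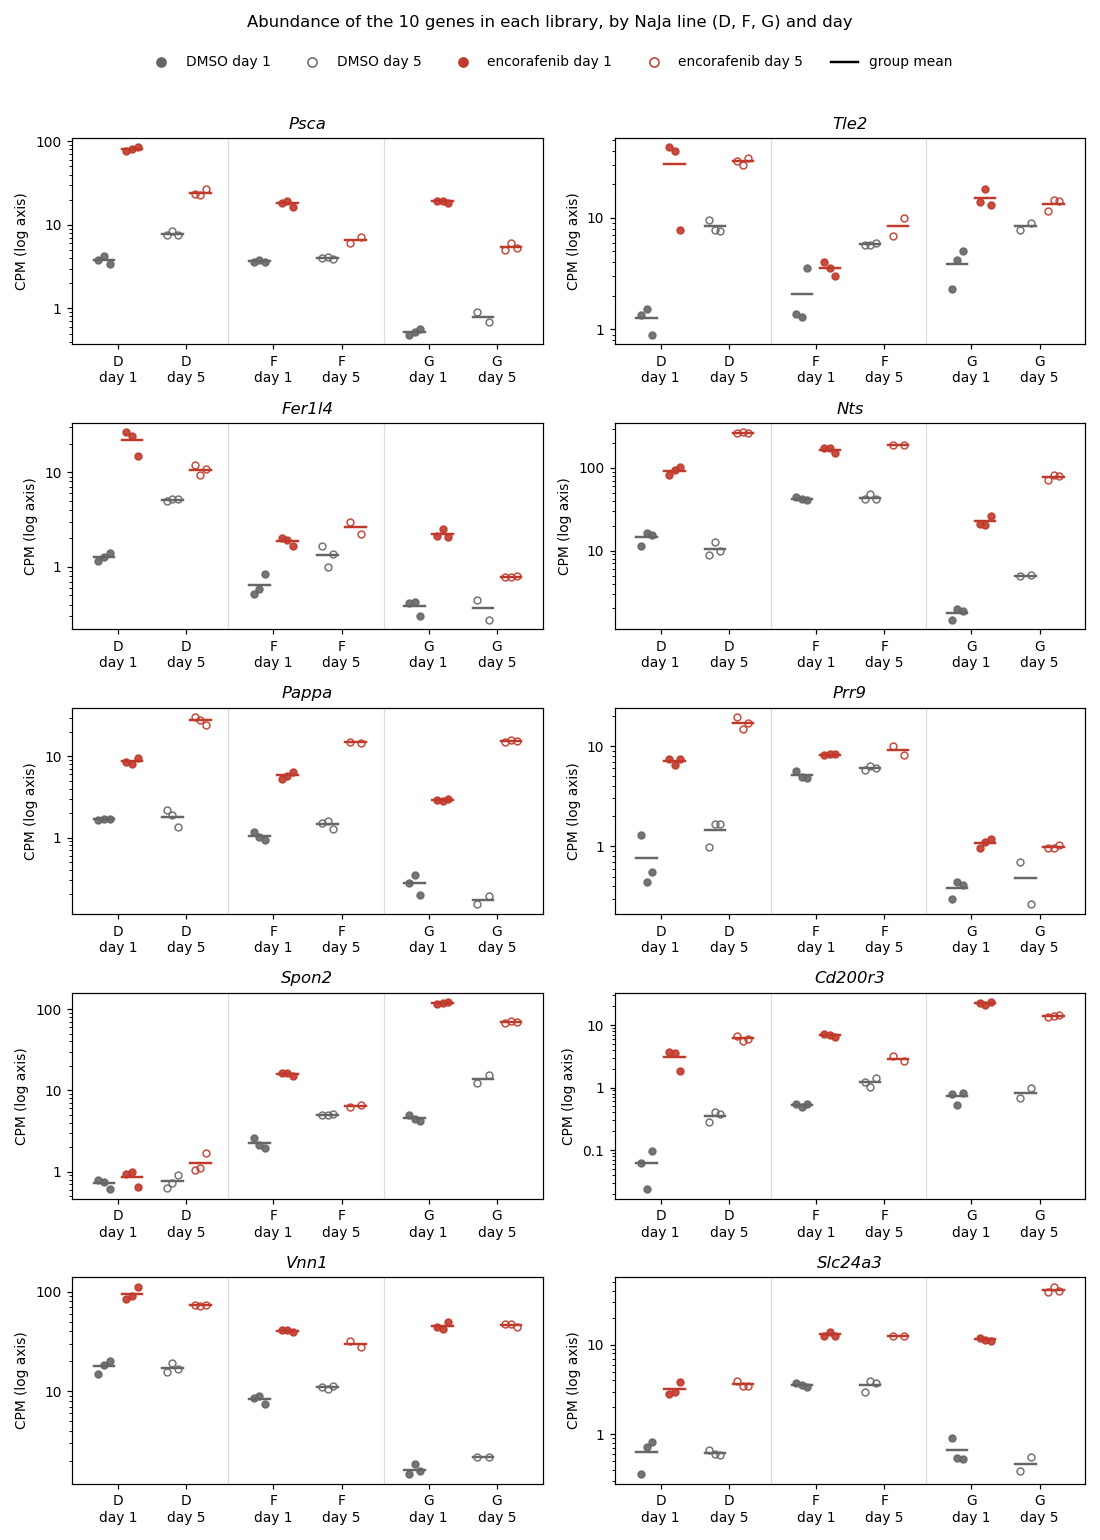
CPM of each gene on a log axis (vertical) in every library, by NaJa line and day (horizontal), with grey points for DMSO, red points for encorafenib, filled points for day 1, open points for day 5 and a line at each group mean. Encorafenib libraries lie above the DMSO libraries of the same line and day except for Tle2 in NaJa-F and Spon2 in NaJa-D at day 1, and the Tle2 library at 7.86 CPM stands apart in NaJa-D encorafenib day 1.

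The 10 genes differed in when the rise was larger. For Psca, Fer1l4, Tle2 and Cd200r3 the log2 fold change was larger at day 1 than at day 5 in each line, and for Spon2 in NaJa-F and NaJa-G. For Nts and Pappa it was larger at day 5 in each line, and for Slc24a3 in NaJa-G, where it went from 4.14 to 6.43. Vnn1 had larger values at day 1 in each line, and Prr9 went from 3.31 to 3.61 in NaJa-D and was slightly larger at day 1 in the other lines. These orders of fitted values are descriptions. The difference between the days could be tested without the choosing libraries in 16 cases, 9 of them in NaJa-F, 3 in NaJa-D and 4 in NaJa-G. By limma-voom 3 were called, all in NaJa-F and all with a smaller response at day 5, where 4.95% of all genes were called in that direction and 0.929% in the other. They were Psca, with a difference of -1.59 (SE 0.16, adjusted p = 3.27e-08) on the log2 scale, Cd200r3 with -2.46 (SE 0.35, adjusted p = 8.51e-06) and Vnn1 with -0.85 (SE 0.16, adjusted p = 3.62e-04). All 3 genes were chosen on day 1 comparisons of the other lines, so the direction of these calls is not free of that choice. No difference between days was called in NaJa-D (4.54% of all genes lower and 2.76% higher) or NaJa-G (16.2% and 15.5%). Differences that include choosing libraries were not tested, for example -2.76 for Psca and -3.04 for Fer1l4 in NaJa-D and 3.04 for Pappa in NaJa-G.

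**Figure D4:**
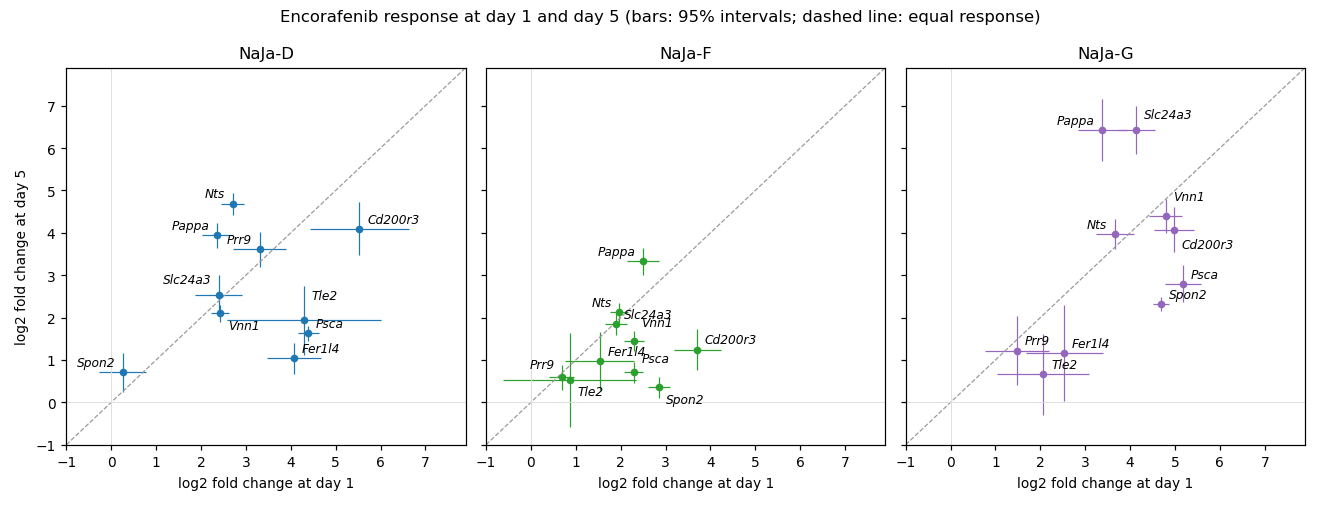
Log2 fold change of encorafenib against DMSO at day 1 (horizontal) and day 5 (vertical) for the 10 genes in each line, with 95% intervals from limma-voom as bars and a dashed line where both days are equal. Nts and Pappa lie above the line in all 3 lines, Slc24a3 lies far above it in NaJa-G only, and Psca, Cd200r3, Tle2 and Fer1l4 lie below it.

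Levels in DMSO were also compared between day 5 and day 1. In NaJa-D, Tle2 went from 1.34, 1.52 and 0.897 CPM in DMSO at day 1 to 9.66, 7.80 and 7.70 CPM at day 5, Fer1l4 from 1.15, 1.27 and 1.41 to 4.96, 5.16 and 5.24 CPM, and Cd200r3 from 0.0628, 0.0235 and 0.0970 to 0.278, 0.411 and 0.374 CPM, without overlap. These libraries helped to choose the 3 genes, so the changes, 2.76, 2.00 and 2.44 on the log2 scale, are descriptions. Spon2 rose in the same descriptive way in NaJa-F (1.19) and NaJa-G (1.601). Of 16 tests of day 5 against day 1 in DMSO by limma-voom, 2 were called higher and 0 lower, beside 13.7%, 9.73% and 17.2% of all genes called higher and 15.3%, 7.01% and 16.8% called lower in the lines D, F and G. These were Nts in NaJa-G, 1.51 (SE 0.25, adjusted p = 1.70e-05), and Cd200r3 in NaJa-F, 1.20 (SE 0.30, adjusted p = 0.00346). The share called was thus near that of all genes. The second call was lost when any 1 of 5 of the 6 libraries compared was left out (adjusted p = 0.0115 to 0.0208). For Tle2 in NaJa-D the encorafenib mean was 30.2 ± 19.4 CPM at day 1 and 32.2 ± 2.53 CPM at day 5 (SD, n = 3), while the fold change was smaller at day 5.

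The lines started from different levels in DMSO. At day 1 the DMSO mean was lowest in NaJa-G for Psca, Fer1l4, Nts, Pappa, Prr9 and Vnn1 and highest there for Spon2, Tle2 and Cd200r3. This order is a description only, with no share over all genes beside it. NaJa-G day 1 libraries helped to choose Psca, Vnn1, Spon2 and Cd200r3. Of 36 comparisons between lines in DMSO that could be tested, limma-voom called 28, 9 of them higher and 19 lower in the line named first. For NaJa-F against NaJa-D, 3 of 5 were called higher and 2 lower at day 1 (26.2% of all genes higher, 23.7% lower) and 3 of 7 higher and 3 lower at day 5 (27.7% and 24.3%). For NaJa-G against NaJa-D, 0 of 4 were higher and 2 lower at day 1 (30.4% and 30.4%) and 2 of 6 higher and 3 lower at day 5 (27.7% and 28.9%). For NaJa-G against NaJa-F, 0 of 6 were higher and 4 lower at day 1 (20% and 23.6%) and 1 of 8 higher and 5 lower at day 5 (19.8% and 24.7%). Nts in NaJa-G against NaJa-F at day 1 had the largest of these differences, -4.59 (SE 0.21, adjusted p = 2.11e-17). The genes called higher in NaJa-G were Spon2, with 4.19 (SE 0.19, adjusted p = 2.09e-17) against NaJa-D and 1.46 (SE 0.10, adjusted p = 7.36e-13) against NaJa-F at day 5, and Cd200r3, with 1.23 (SE 0.39, adjusted p = 0.00647) against NaJa-D at day 5. The last call was lost when any 1 of 4 libraries was left out. For NaJa-F minus NaJa-D at day 1 Slc24a3 gave 2.56 (SE 0.25, adjusted p = 9.25e-10) and Prr9 2.84 (SE 0.29, adjusted p = 2.17e-09). Vnn1 in NaJa-G differed from NaJa-D by -2.96 (SE 0.20, adjusted p = 2.70e-13) at day 5.

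The size of the encorafenib response also differed between lines. Of 36 tests of a difference in log2 fold change between 2 lines on the same day, limma-voom called 19. At day 5 the response in NaJa-G exceeded that in NaJa-F for 5 of 8 genes tested (16.2% of all genes), by 2.96 (SE 0.23, adjusted p = 3.86e-11) for Vnn1, 2.83 (SE 0.35, adjusted p = 2.31e-07) for Cd200r3, 2.09 (SE 0.25, adjusted p = 1.26e-07) for Psca, 1.97 (SE 0.14, adjusted p = 1.06e-11) for Spon2 and 1.85 (SE 0.20, adjusted p = 3.29e-08) for Nts, and was smaller for 0 (7.95% of all genes). At day 1 it exceeded NaJa-F for 2 of 6 (19.2%, 14.3% smaller), Slc24a3 with 2.24 (SE 0.23, adjusted p = 7.43e-09) and Nts with 1.69 (SE 0.23, adjusted p = 8.10e-07). Against NaJa-D, the NaJa-G response was larger for 3 of 4 genes at day 1 (20.2%), Slc24a3, Pappa and Nts, and for 3 of 6 at day 5 (14.1% of all genes, 7.82% smaller), Vnn1, Spon2 and Psca. Prr9 went the other way, with a smaller response in NaJa-G than in NaJa-D at day 1, -1.83 (SE 0.45, adjusted p = 0.00151), where 16.2% of all genes were called lower. NaJa-F responded less than NaJa-D for 2 of 5 genes at day 1 (4.3% of all genes, 4.49% more), Prr9 with -2.62 (SE 0.32, adjusted p = 2.25e-06) and Nts with -0.73 (SE 0.16, adjusted p = 0.00168), and for 3 of 7 at day 5 (4.77% less, 4.08% more), Cd200r3 with -2.85 (SE 0.39, adjusted p = 5.41e-06), Psca with -0.93 (SE 0.15, adjusted p = 6.82e-05) and Vnn1 with -0.66 (SE 0.15, adjusted p = 0.00245). These comparisons share groups, so they are not independent of each other. They are also not free of the choice of genes, although choosing libraries were left out. Psca, Spon2, Cd200r3 and Vnn1 had NaJa-G day 1 among their choosing comparisons, and Prr9 and Nts were chosen on NaJa-D day 5. Only Spon2 had a choosing comparison in NaJa-F. The direction of the differences between lines may thus reflect how the genes were picked.

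The genes closest in pattern to each member were sought by Pearson correlation of log2 CPM over all 34 libraries among 12376 genes with a mean log2 CPM of at least 0. Libraries share line, day and treatment, so the values describe likeness only. Closest to Psca were Vwa7 (r = 0.941) and Cog7 (r = 0.939), to Cd200r3 4931406C07Rik (r = 0.964) and Mapre3 (r = 0.963) and to Vnn1 Gdpd5 (r = 0.9751) and Kremen1 (r = 0.971). For the secreted proteins they were Celsr1 (r = 0.964) and Parp14 (r = 0.942) for Nts, Cldn1 (r = 0.971) and Foxj1 (r = 0.954) for Pappa and Mapk4 (r = 0.977) and Pcyt1a (r = 0.976) for Spon2. Slc24a3 was most like Lgals9 (r = 0.966) and Nuak1 (r = 0.962), Fer1l4 like Fahd2a (r = 0.950) and Ctnnb1 (r = 0.947), Tle2 like Zfp523 (r = 0.949) and Trafd1 (r = 0.942) and Prr9 like Hmgn3 (r = 0.919) and Adgrg1 (r = 0.915). Among the 10 genes themselves Psca and Vnn1 were most alike (r = 0.932), followed by Pappa and Vnn1 (r = 0.910), and Fer1l4 and Spon2 were least alike (r = -0.413).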

How the data were processed

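The authors sequenced RNA of 34 samples from NaJa-G, NaJa-F and NaJa-D cells kept in DMSO or 0.5 µM encorafenib over 1 or 5 days. According to the submitters' processing notes and the authors' methods, reads were trimmed with Trimmomatic 0.39 and aligned with STAR 2.5.2b to GRCm38. What the authors deposited are raw counts for each gene, and the counter, its annotation and its use of strand are not given in the sources used here. The deposited table holds 14107 genes, each above 1 CPM in at least 2 libraries. All 34 libraries were grouped by line, treatment and day from their titles. Symbols and positions came from GENCODE M21, promoters from RefSeq.

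Counts were fitted in R 4.3.3 with limma 3.58.1 (voom, one mean per group, all libraries sharing one estimate of the spread) after TMM scaling in edgeR 4.0.16. The authors' methods name limma, TMM and an adjusted p below 0.01, and voom was chosen here for raw counts. All tests were two-sided, with Benjamini-Hochberg adjustment over all genes of a comparison. CPM used TMM factors, and log2 CPM for correlations a prior count of 2. Exact binomial intervals (95%) on summed reads cover counting error only, and pairs of replicates differed by 3.32 to 86.7 times that noise, so no 2 libraries were taken for duplicates. In simulated counts of 14107 genes for NaJa-F day 5, 98 of 100 genes changed by a log2 of 2 and 71 of 100 changed by a log2 of 1 were recovered. The changed genes were drawn at random from all levels, so recovery at the lower levels of the members was not measured. In DMSO the members lay between percentile 4.47 (Cd200r3) and 40.7 (Nts) of all genes.

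The members and the lists of related genes were chosen with earlier results of these data known. The text names all 10 members, from each list up to 3 genes with the largest absolute log2 fold change of at least 1 among called ones, the 2 genes most alike to each member, and Spry4, Etv4 and Dusp6. List genes outside that rule (Stc2, Igfbp4, Furin, Dok1, Dok2, Lynx1 and Ly6d) were named after their values were seen. The alternatives tried were limma-trend (prior count 3), DESeq2 1.42.0, the quasi-likelihood test of edgeR, RLE factors, library size only, filterByExpr, only the groups compared, a limit of 0.05 on the adjusted p, a log2 fold change of at least 1, a block for the replicate number and leaving out each library in turn.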

Additional observations from a re-analysis of the deposited data

Results flagged for a closer look

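The encorafenib response differed between days or between lines by a test of the difference itself (limma-voom, adjusted p below 0.01) in 22 cases, given as differences in log2 fold change. The genes were picked for large rises, so the direction of these differences is not free of that choice. Between days, the response in NaJa-F was smaller at day 5 than at day 1 for Psca (-1.59), Cd200r3 (-2.46) and Vnn1 (-0.85). For NaJa-F minus NaJa-D the differences were -0.73 for Nts and -2.62 for Prr9 at day 1, and -0.93 for Psca, -2.85 for Cd200r3 and -0.66 for Vnn1 at day 5.

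For NaJa-G minus NaJa-D they were 0.96 for Nts, 1.02 for Pappa, 1.74 for Slc24a3 and -1.83 for Prr9 at day 1, and 1.17 for Psca, 1.61 for Spon2 and 2.31 for Vnn1 at day 5. For NaJa-G minus NaJa-F they were 1.69 for Nts and 2.24 for Slc24a3 at day 1, and 2.09 for Psca, 1.85 for Nts, 1.97 for Spon2, 2.83 for Cd200r3 and 2.96 for Vnn1 at day 5.

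The differences at day 1 that involve NaJa-D include the library NaJa-D encorafenib day 1 replicate 3, and without it they were -0.63 and 1.07 for Nts, -2.56 and -1.76 for Prr9, 1.13 for Pappa and 1.89 for Slc24a3, with all calls kept. The difference of Pappa between NaJa-G and NaJa-D was the least stable, since its adjusted p rose above 0.01 when any 1 of 11 of the 12 libraries compared was left out. Other calls lost without 1 library were Psca for NaJa-G minus NaJa-D at day 5 (0.94 without NaJa-G DMSO day 5 replicate 3), Nts for NaJa-F minus NaJa-D (-0.53 without NaJa-D DMSO day 1 replicate 1) and NaJa-G minus NaJa-D (0.81 without NaJa-G DMSO day 1 replicate 1), and Vnn1 for NaJa-F minus NaJa-D at day 5 (-0.59 without NaJa-D DMSO day 5 replicate 1 and -0.57 without NaJa-F encorafenib day 5 replicate 2). With only the groups compared, both Nts calls against NaJa-D (-0.70 and 0.89, limma-voom adjusted p = 0.0186 and 0.0229) and that of Pappa (0.96, limma-voom adjusted p = 0.0141) were also lost, and that of Pappa was lost with library size only (0.89, limma-voom adjusted p = 0.0151).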

How the results depend on the processing

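Single-gene values followed through the alternatives were all encorafenib values of the members and their called values in the other families, 112 in all. None of these changed direction, and the remaining values were not followed. The 46 tested encorafenib values gave 35 to 41 calls against 38, the lowest under a log2 fold change of at least 1. Counts moved by more than 1.5 times in 2 families. Tests of day 5 against day 1 in DMSO gave 5 calls with edgeR, DESeq2 and limma-trend and 4 with only the groups compared, against 2, and 1 to 6 when a library was left out, with 6 without NaJa-D encorafenib day 1 replicate 3 and 1 without any of 5 NaJa-F DMSO libraries. Response differences between days gave 5 calls with edgeR, with DESeq2 and with only the groups compared, against 3, and 3 to 5 when a library was left out, with 5 without NaJa-D encorafenib day 1 replicate 3. The cause was not tested. Line comparisons in DMSO gave 27 to 30 calls against 28, and response differences between lines 18 to 21 against 19. Related genes gave 313 calls with edgeR and 364 at an adjusted p below 0.05, against 309. filterByExpr kept all 14107 genes. Replicate numbers did not pair the samples, since only 3 of 16 pairs of same-numbered libraries had correlated deviations above 0.1 (-0.157 to 0.215) and 6 matched their own number best. With the replicate number as a block the counts were 38, 2, 28, 3 and 19 for encorafenib, time in DMSO, lines in DMSO and response differences between days and between lines. Where a group kept 1 library, the spread pooled over groups was assumed for it. Counts under about 20 per library, as in Cd200r3 and Pappa in DMSO, limit the precision of those fold changes.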
